A study of Mus musculus with 16 samples.

Results

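The comparison described here is the interaction of genotype and diet in mouse hippocampus, that is, the effect of a ketogenic diet in Kcna1 knockout mice minus its effect in wild-type mice, gene by gene. It was computed from 15 of the 16 RNA-seq libraries of the study. The groups were wild type on standard diet (4 libraries), knockout on standard diet (3 used of 4), wild type on ketogenic diet (4) and knockout on ketogenic diet (4). The libraries used were chosen by a measured value: a knockout library on standard diet was left out when Kcna1 made up more than 60 CPM of its total (CPM being counts scaled to a common library size), and this removed the library with animal tag KC888LL. Just inside that limit stood KC872RL at 47.9 CPM, and just outside stood KC888LL at 82.2 CPM, between the other knockout libraries and wild type. Its level goes against its knockout label, and its genotype was not tested, so values from 16 libraries include a library of doubtful genotype. Because the rule used Kcna1, its levels are a description without a test. The labels gave no age, sex, strain or allele, and did not say how long the diets were fed.

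Kcna1 encodes the Kv1.1 subunit of a voltage-gated potassium channel that sits on axons and limits their excitability, and mice without it have spontaneous seizures. A ketogenic diet is rich in fat and poor in carbohydrate, so that the liver makes ketone bodies which the brain can burn in place of glucose, and it is used against epilepsy. An interaction asks whether the diet acts differently in the epileptic animals than in healthy ones, which neither diet comparison shows by itself.

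Kcna1 ranged from 114.9 to 129.5 CPM of total in wild type on standard diet, from 107.7 to 128.6 in wild type on ketogenic diet, from 45.5 to 47.9 in the 3 knockout libraries used on standard diet and from 42.3 to 46.8 in knockout on ketogenic diet. Totals ran from 13440230 to 22309504 counts. Markers of dentate gyrus (11 of 11), CA1 (10 of 10) and CA3 (10 of 10) all passed the filter on low counts. Markers of neighbouring tissue were also present, with summed levels of the choroid plexus list between 105.8 and 1705 CPM over the libraries used. Y-linked genes were expressed in 2 of the 3 knockout libraries on standard diet (KC872RL and KC873RR), in 0 of the 4 knockout libraries on ketogenic diet, and in 1 of 4 libraries of each wild-type group (KC890RL and KC846L). The groups therefore differed in sex composition as well as in genotype and diet. Animal tags ran from 842 to 846 in wild type on ketogenic diet and from 913 to 935 in knockout on ketogenic diet. On standard diet they were 890, 894, 897 and 900 in wild type. The knockout libraries used on that diet had tags 872, 873 and 893, of which only 893 fell within the wild-type range. The deposited columns carried no replicate number, and p-values measure only the spread between these libraries.

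No gene of 17725 tested passed an adjusted p of 0.05 for the interaction in edgeR's quasi-likelihood test with Benjamini-Hochberg adjustment, where the smallest adjusted p was 0.0827. At an unadjusted p under 0.05 there were 2035 genes, 11.5% of those tested, where 5% would lie below that threshold if p-values were uniform. The difference of diet effects was positive in 1009 of them (5.69%) and negative in 1026 (5.79%). DESeq2 on the same 15 libraries called 205 genes, 88 positive and 117 negative. The number called thus depended on the test. Without KC893RL, the knockout library on standard diet without Y-linked expression, edgeR called 189 genes, and without KC913RR or KC934R, both knockout on ketogenic diet, it called 13 and 5. With KC888LL added back to the knockout libraries on standard diet it again called 0, with 1306 at an unadjusted p under 0.05, 7.48% of 17469 tested. With Y-linked expression as a factor the share at such a p was 8% on 15 libraries. On 16 libraries with that factor it was 4.45%, below the 5% of uniform p-values.

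More genes passed the diet test in the knockout than in wild type. Ketogenic against standard diet changed 1096 genes in the knockout (6.18%), of which 458 rose (2.58%) and 638 fell (3.6%), and 2 in wild type (0.0113%), Btg2 upward and Adamts4 downward. Since the interaction itself called 0 genes in edgeR, no gene's response was shown to differ between the genotypes by that test. Among the 2035 genes at an unadjusted interaction p under 0.05, the median size of the log2 change with diet was 0.35 in the knockout and 0.09 in wild type, against 0.15 and 0.09 over all tested genes. In 73.5% of the 2035 the knockout mean on standard diet was the group mean farthest from the other 3, as it was in 46.4% of all tested genes. These genes were chosen by the interaction itself, so these values describe them and test nothing. The number of calls in the knockout was 202 with KC888LL included (1.16%), and it was 171 with Y-linked expression as a factor and 139 and 446 without KC872RL and without KC873RR. On the 11 libraries without Y-linked expression it was 0.

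**Figure D1:**
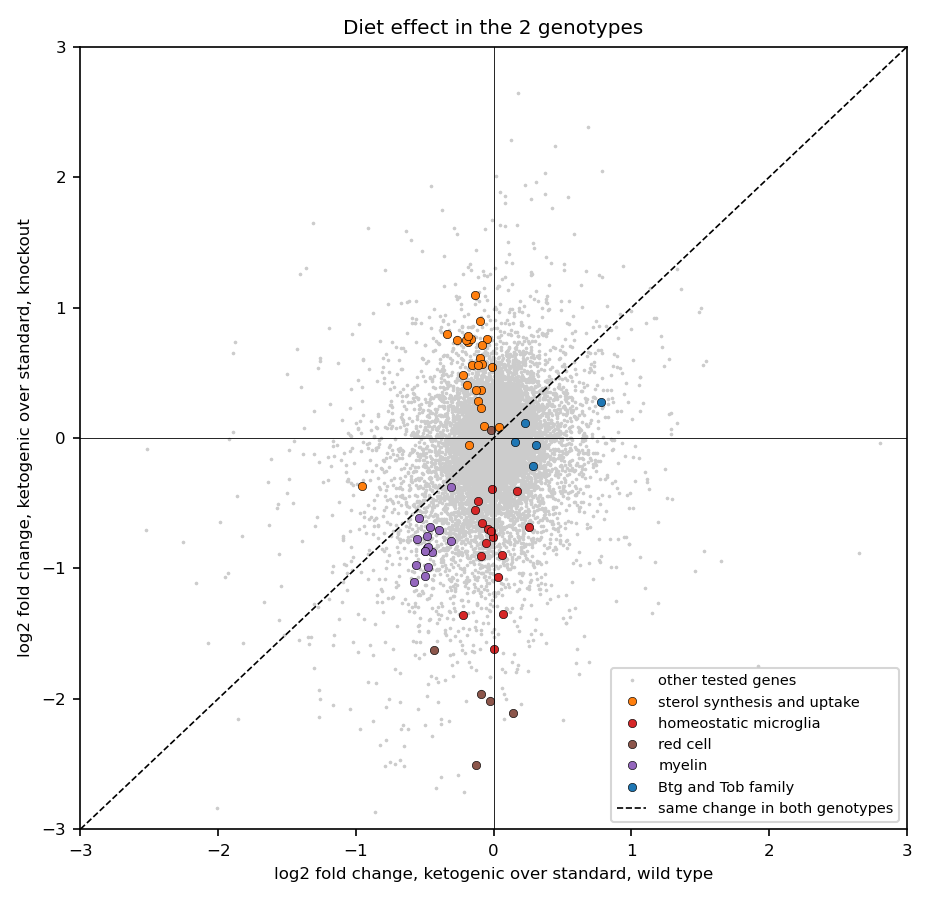
Log2 fold change with ketogenic diet in wild type (horizontal) and in the knockout (vertical) for the tested genes, each point a gene, with 5 gene lists in colour. Points above the dashed line have a positive interaction. The sterol genes lie above it and the microglial and red cell genes mostly below it, at wild-type changes near 0, whereas myelin genes lie below 0 in both genotypes. The axes stop at 3, which leaves 25 genes undrawn.

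The 10 genes of smallest p with a positive interaction were Stra6, Tlcd1, 4921539H07Rik, 2900026A02Rik, Rab15, Nwd2, Dok4, Crmp1, Nos1ap and Cbs. The 10 with a negative interaction were Dalir, Clu, Rida, Apobec1, Hbb-bt, Hhatl, Tmem47, Ctsa, Myo1f and B2m. Their adjusted p-values lay between 0.0827 and 0.137 in edgeR, and DESeq2 called all 20, whereas limma-voom called 0 of them. None changed sign under any alternative run. They were taken for their small p, so the values that follow describe them and do not test them again.

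Stra6, a cell-surface receptor through which retinol enters cells, had the smallest p among the positive genes. In wild type its level was 13.2, 16.6, 16.7 and 12.1 CPM on standard diet and 15.1, 15.7, 16.1 and 16.1 CPM on ketogenic diet. In the knockout it was 7.45, 8.67 and 9.56 CPM on standard diet and 15.4, 21.0, 17.3 and 21.3 CPM on ketogenic diet. The 3 knockout libraries on standard diet lay below all 12 others, and the ketogenic ones lay inside or above the wild-type range. The log2 change with diet was 1.13 ± 0.14 (SE) in the knockout and 0.11 ± 0.12 in wild type, a difference of 1.03 ± 0.18 (adjusted p 0.0827, edgeR). The left-out library KC888LL stood at 14.5 CPM, inside the wild-type range.

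Cbs makes cystathionine from homocysteine and is a source of hydrogen sulphide in brain. It read 33.0, 28.5, 32.4 and 27.2 CPM in wild type on standard diet and 30.2, 29.8, 29.7 and 34.6 CPM in wild type on ketogenic diet. The knockout gave 23.2, 22.3 and 21.2 CPM on standard diet, below every other library, and 31.2, 35.6, 34.3 and 32.0 CPM on ketogenic diet. The interaction was 0.54 ± 0.12 (adjusted p 0.137, edgeR). KC888LL stood at 27.7 CPM.

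Rab15, a small GTPase of endosome recycling, had levels of 255, 250, 281 and 271 CPM in wild type on standard diet and 244, 279, 244 and 269 CPM on ketogenic diet. In the knockout its levels were 163, 175 and 183 CPM on standard diet and 264, 221, 228 and 242 CPM on ketogenic diet. The low levels were again those of the 3 knockout libraries on standard diet. The interaction was 0.49 ± 0.10 (adjusted p 0.103, edgeR).

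The remaining positive genes had the same arrangement. Crmp1, a cytosolic phosphoprotein of semaphorin signalling in axon guidance, averaged 201 ± 12.2 CPM (SD, n = 3) in knockout on standard diet and between 263 and 272 CPM in the other groups. Nos1ap, an adaptor that binds neuronal nitric oxide synthase, averaged 81.5 ± 7.51 CPM (SD, n = 3) there and between 109 and 119 CPM elsewhere. In all 10 positive genes the knockout libraries on standard diet lay below the other 12, where 3.59% of tested genes had that order. The interactions of the 10 ran from 0.41 to 1.26, and the diet effect passed the test in the knockout for all 10 (adjusted p from 0.00127 to 0.00893, edgeR) and in wild type for none. Without the 4 libraries that express Y-linked genes the 10 differences ran from 0.29 to 1.32, each at an unadjusted p under 0.05, but KC893RL was then the only knockout library on standard diet and its spread was assumed to equal that of the other groups. For the 10 negative genes the differences then ran from -2.64 to -0.26, with a median of -0.71 against -1.03 with 15 libraries, and 9 had an unadjusted p under 0.05. With KC888LL added to that set, 5 of the 10 positive and 3 of the 10 negative genes had an unadjusted p under 0.05. Of the 20 genes, Tlcd1, 4921539H07Rik, Nwd2, Dok4, Nos1ap, Ctsa and Tmem47 share exonic sequence with a neighbouring gene, and their counts are uncertain because use of strand is not given in the sources used here.

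Clu encodes clusterin, a secreted chaperone made chiefly by astrocytes. Its level was 657, 632, 641 and 659 CPM in wild type on standard diet and 657, 638, 705 and 657 CPM in wild type on ketogenic diet. In the knockout it was 923, 1065 and 828.6 CPM on standard diet and 629, 647, 686 and 600 CPM on ketogenic diet. The interaction was -0.59 ± 0.10 (adjusted p 0.0827, edgeR), and KC888LL, at 637 CPM, lay with wild type.

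B2m, the light chain of MHC class I, had levels of 21.3 to 25.3 CPM in wild type and of 17.7 to 24.7 CPM in knockout on ketogenic diet. On standard diet the knockout gave 44.2, 46.1 and 28.8 CPM for KC872RL, KC873RR and KC893RL. All 3 lay above every other library, with KC893RL nearest to them. The interaction was -0.94 ± 0.18 (adjusted p 0.103, edgeR) and -0.48 without the libraries that express Y-linked genes.

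Of the 10 negative genes, 8 had the knockout libraries on standard diet above the other 12, where 2.88% of tested genes had that order. These 8 were Clu, Rida, Apobec1, Hhatl, Tmem47, Ctsa, Myo1f and B2m. Rida, a deaminase that clears reactive enamines, read 38.6, 41.3 and 28.5 CPM in KC872RL, KC873RR and KC893RL, against 14.5 to 22.9 CPM in the other 12 libraries. Apobec1, the catalytic subunit that edits apolipoprotein B mRNA and is expressed in myeloid cells, read 4.05, 4.71 and 1.65 CPM in the same 3, against 0.764 to 1.46 CPM. In each of these 8 genes KC893RL was closest to the other groups. KC888LL, which had no part in the fit, lay within the wild-type range for 17 of the 20 genes (85%), close to the 83.8% of all tested genes. It lay within the range of the other knockout libraries on standard diet for 1, against 41.2% of all tested genes. The 20 genes were chosen for their small p in a fit to those other libraries, so this count tests nothing.

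Dalir had another arrangement. It gave 0.819, 1.14, 0.486 and 0.783 CPM in wild type on standard diet and 2.85, 1.78, 2.12 and 3.43 CPM in wild type on ketogenic diet. In the knockout it gave 2.45, 3.14 and 3.55 CPM on standard diet and 1.33, 1.05, 2.26 and 1.59 CPM on ketogenic diet. It was thus higher with diet in wild type and lower with diet in the knockout, with log2 changes of 1.65 ± 0.30 and -0.94 ± 0.29. Neither change passed the test on its own (adjusted p 0.185 and 0.0629, edgeR), and the difference was -2.59 ± 0.42 (adjusted p 0.0827). All its levels were within a few CPM and rest on few counts.

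**Figure D2:**
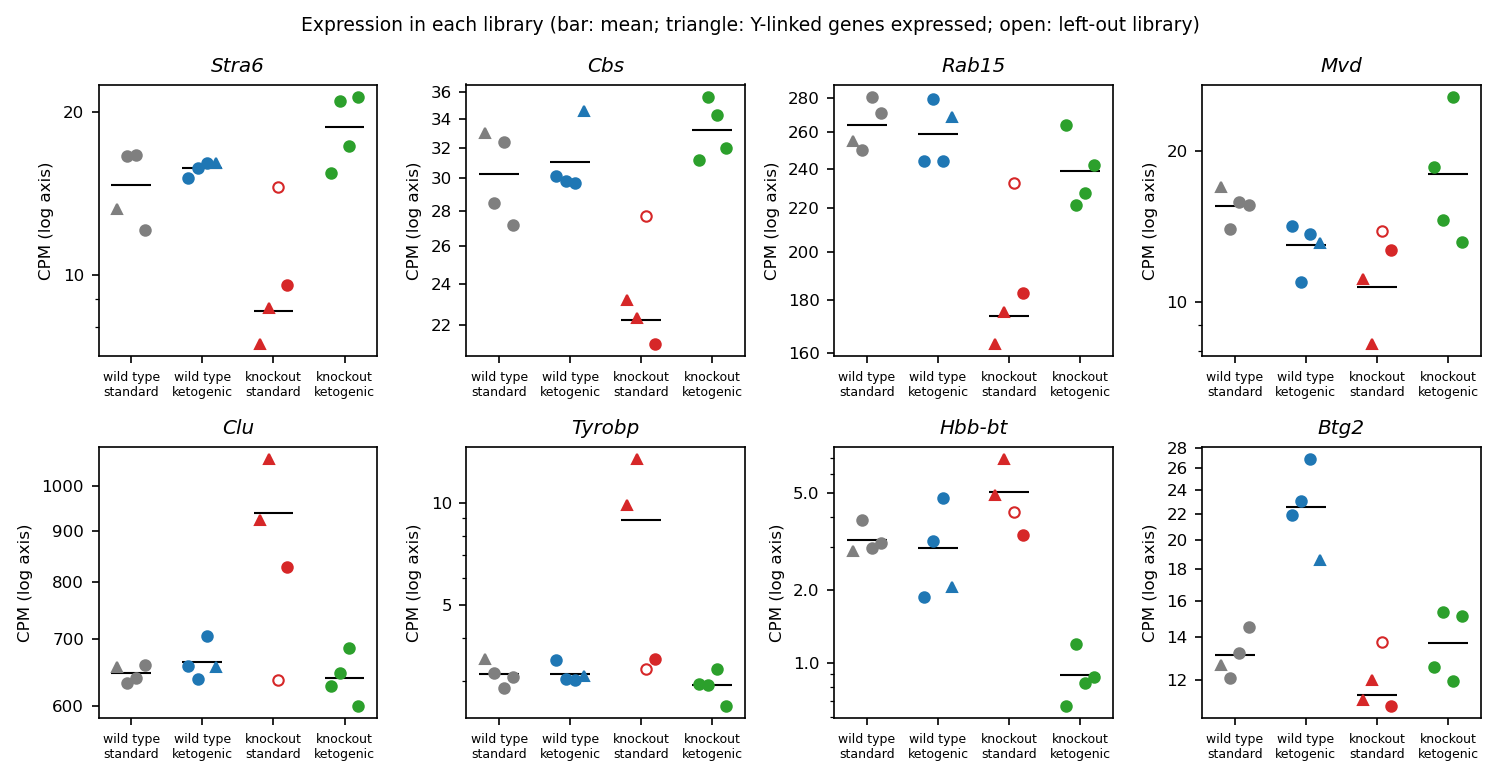
Expression of 8 genes in each library in CPM on a log axis, by group, with bars at the mean of the libraries used, triangles for libraries that express Y-linked genes and an open circle for the left-out KC888LL. Stra6, Cbs and Rab15 are low and Clu is high in the 3 knockout libraries on standard diet, Tyrobp is high in 2 of them, Mvd is high in 2 knockout libraries on ketogenic diet, Hbb-bt is low in all 4 of those, and Btg2 is high in wild type on ketogenic diet.

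Glutamate receptor and scaffold genes had mostly positive interactions, and genes of GABA receptors, synthesis and transport had both signs. Of 22 glutamate receptor and scaffold genes, 20 had a positive and 2 a negative difference, 8 positive at an unadjusted p under 0.05, and the median was 0.17, against 0.01 over all tested genes. Only 1 had such a p with KC888LL included and 2 without the libraries that express Y-linked genes, where the medians were 0.13 and 0.13, and with both changes 0 had one and the median was 0.077. In the knockout 8 of the 22 rose with diet and 0 fell, against 2.58% and 3.6% of all tested genes. Grin2a, the GluN2A subunit of the NMDA receptor, ranged from 435 to 512 CPM in wild type and read 346, 397 and 364 CPM in knockout on standard diet and 492, 523, 466 and 480 CPM on ketogenic diet. Its interaction was 0.28 ± 0.08 (adjusted p 0.195, edgeR). Shank3, a scaffold of the postsynaptic density, had an interaction of 0.34 ± 0.10 (adjusted p 0.188, edgeR). In 7 of the 22 genes (Dlg4, Gria1, Grin2a, Homer1, Shank1, Shank2 and Shank3) the knockout libraries on standard diet lay below the other 12, against 3.59% of tested genes, and in Grik1 they lay above them, against 2.88%. Of the 20 GABA genes 12 were positive and 8 negative, 2 and 3 of them at an unadjusted p under 0.05, with a median of 0.044. That median turned to -0.034 without KC846L and was 0.088 without KC916RRL. Without the libraries that express Y-linked genes 7 were positive and 13 negative, 0 and 5 at such a p, with a median of -0.062. Of 27 other ion channel genes, 21 had a positive difference, 5 at an unadjusted p under 0.05, with a median of 0.08, and the median was 0.13 without KC893RL and close to 0 without the libraries that express Y-linked genes. In CA3 markers 7 of 10 were positive, 3 at an unadjusted p under 0.05 (0 without the libraries that express Y-linked genes), with a median of 0.36. These changes are shares of RNA in bulk tissue, in which fewer cells of a type and less RNA per cell cannot be told apart.

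Microglial genes lay on the other side. Microglia are the resident macrophages of the brain, and their homeostatic markers include receptors for purines, chemokines and CSF1. All 16 homeostatic microglial genes had a negative interaction, 14 of them at an unadjusted p under 0.05, with a median of -0.76. In the knockout 13 fell with diet, against 3.6% of all tested genes. Tyrobp, the signalling adaptor of Trem2, read 9.85 and 13.4 CPM in KC872RL and KC873RR and 3.48 CPM in KC893RL, against 2.53 to 3.47 CPM in the other 12 libraries. It was high in KC872RL and KC873RR, and KC893RL lay just above the range of the other groups. The interaction of Tyrobp was -1.62 ± 0.41 (adjusted p 0.149, edgeR).

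The whole microglial list behaved likewise. Summed over the list, wild type lay between 323 and 352 CPM and knockout on ketogenic diet between 291 and 316 CPM. On standard diet KC872RL and KC873RR summed to 611 and 628 CPM, whereas KC893RL summed to 330 CPM and KC888LL to 332 CPM. No marker of the list was at 0 in any library. By this sum, the 2 knockout libraries on standard diet that express Y-linked genes stood above the other 14. The 2 wild-type libraries that express them stood at 349 CPM (KC890RL) and 352 CPM (KC846L), the upper end of the wild-type range. Without these 4 libraries the median interaction of the list was -0.20, with 11 of 16 negative and 1 at an unadjusted p under 0.05.

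Several genes of activated microglia, complement and antigen presentation were also highest in KC872RL and KC873RR. For some of these KC893RL lay above the other groups too. All 3 knockout libraries on standard diet lay above the other 12 in 6 of 13 activated microglial genes, 4 of 10 complement genes (among them C1s1, C4b and Serping1) and 4 of 16 interferon and MHC genes (B2m, H2-K1, Ifit3 and Psmb9), against 2.88% of tested genes. The complement list summed to 326, 312 and 154 CPM in KC872RL, KC873RR and KC893RL and to at most 143 CPM in the other 12 libraries. In the activated microglial list 12 of 13 tested genes were negative, 7 at an unadjusted p under 0.05, with a median of -1.08. Lpl, positive, was the exception. Its levels in the knockout libraries on standard diet lay below the other 12, an order that 3.59% of tested genes had. Lyz2, a lysozyme of macrophages, read 12.4, 14.0 and 3.55 CPM in KC872RL, KC873RR and KC893RL and 1.24 to 2.71 CPM in the other 12 libraries. All 10 tested complement genes were negative, 8 at an unadjusted p under 0.05, with a median of -1.04. C1qa, a chain of the first component of the classical pathway, read 71.6, 66.5 and 27.7 CPM in those 3 libraries against 23.1 to 30.1 CPM, so KC893RL lay among the other groups. Of 16 interferon and MHC genes 13 were negative, 5 at an unadjusted p under 0.05, with a median of -0.47. Without the libraries that express Y-linked genes the medians were -0.12, -0.32 and 0.07 for the 3 lists. The interferon and MHC median was -0.29 without KC872RL.

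General astrocyte genes were mostly negative and reactive ones had no stable sign. Of 14 general astrocyte genes 13 had a negative interaction, 3 of them (S100b, Gjb6 and Kcnj10) at an unadjusted p under 0.05, with a median of -0.20 that ran from -0.30 to -0.078 over the alternatives. Without the libraries that express Y-linked genes the median was -0.083, with 1 gene at an unadjusted p under 0.05. S100b, a calcium-binding protein of astrocytes, read 87.0, 75.1 and 69.1 CPM in knockout on standard diet and 39.4 to 57.3 CPM in the other 12 libraries, with an interaction of -0.63 ± 0.13 (adjusted p 0.103, edgeR). Gfap, the intermediate filament of reactive astrocytes, ranged from 294 to 392 CPM in wild type. Knockout levels were 2313, 1338 and 610 CPM on standard diet and 2013, 289, 1058 and 295 CPM on ketogenic diet. High and near wild-type levels thus occurred within the ketogenic group, and the interaction was -0.51 ± 0.85 (adjusted p 0.859, edgeR). Its sign turned, to 0.03, without KC872RL. Serpina3n, a protease inhibitor of reactive astrocytes, followed the same libraries, at 259, 157 and 85.4 CPM on standard diet and 178, 48.4, 125 and 46.0 CPM on ketogenic diet. Of 11 tested genes of the reactive list 4 were positive and 7 negative, none at an unadjusted p under 0.05. The list's median was -0.32 with 15 libraries, 0.04 with KC888LL included and 0.68 without the libraries that express Y-linked genes.

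Sterol genes had the opposite sign and another arrangement. Neurons and glia make their own cholesterol, because lipoproteins do not cross from blood, and the pathway runs from acetyl-CoA through HMG-CoA and squalene under the transcription factor SREBP2. All 25 genes of sterol synthesis and uptake had a positive interaction, 19 at an unadjusted p under 0.05, with a median of 0.71. Median log2 changes with diet were 0.56 in the knockout and -0.13 in wild type, and 4 genes rose in the knockout, among them Mvd, Lss and Srebf2, where 2.58% of all tested genes rose. Mvd, the mevalonate decarboxylase, read 16.95, 14.0, 15.8 and 15.6 CPM in wild type on standard diet and 14.2, 10.98, 13.7 and 13.1 CPM in wild type on ketogenic diet. Levels in the knockout were 11.1, 8.26 and 12.7 CPM on standard diet and 18.6, 14.6, 25.7 and 13.2 CPM on ketogenic diet. The high levels were those of KC913RR and KC934R, the same 2 ketogenic libraries in which Gfap stood at 2013 and 1058 CPM. The other 2 ketogenic knockout libraries, KC916RRL and KC935LL, lay inside the wild-type range of Mvd. Its interaction was 1.02 ± 0.26 (adjusted p 0.169, edgeR).

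Hmgcs1, which makes HMG-CoA, was the only one of 17 sterol genes with a promoter in the RefSeq table to hold the sterol element TCACNCCAC, searched on both strands of 20 promoter windows of 300 bases. That is 5% of these windows, against 1.24% of all 32851 windows in the table. The gene read 285, 268, 260 and 267 CPM in wild type on standard diet and 207, 229, 210 and 210 CPM on ketogenic diet. The knockout gave 218, 126 and 225 CPM on standard diet and 438, 188, 462 and 226 CPM on ketogenic diet. The wild-type groups did not overlap, with the ketogenic one lower, and the knockout groups did. The interaction was 1.13 ± 0.40 (adjusted p 0.305, edgeR). Its promoter (RefSeq, GRCm38.p6, chr13:119690101-119690400, plus strand) is printed with the element in capitals, 137 bases before the start site, to show the single match of the list.
Hmgcs1: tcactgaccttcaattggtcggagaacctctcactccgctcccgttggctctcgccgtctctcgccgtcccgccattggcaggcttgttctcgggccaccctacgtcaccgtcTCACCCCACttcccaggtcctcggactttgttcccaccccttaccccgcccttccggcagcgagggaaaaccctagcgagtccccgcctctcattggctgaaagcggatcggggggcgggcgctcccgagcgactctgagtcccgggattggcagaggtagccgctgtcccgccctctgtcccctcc
The match is a description of the letters only. In all 6 motifs were searched on both strands of these windows, and the other 5 were TGACGTCA (1.79% of all windows), TGANTCA (7.81%), CACGTG (7.15%), the direct-repeat PPAR element (0.0396%) and the palindromic glucocorticoid element (0.0578%). Of the 20 sterol windows, TGANTCA was in 2, CACGTG in 4 and the remaining 3 motifs in 0.

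The sterol median stayed between 0.48 and 0.85 under every alternative run. It was 0.48 without the libraries that express Y-linked genes, with 23 of 25 positive and 0 at an unadjusted p under 0.05, and 0.52 without KC934R. Sterol levels on standard diet also varied within the knockout, where the mean log2 CPM of the list was 4.81, 4.36 and 4.93 in KC872RL, KC873RR and KC893RL, against 4.80 to 5.02 in wild type. KC888LL stood at 4.85.

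**Figure D3:**
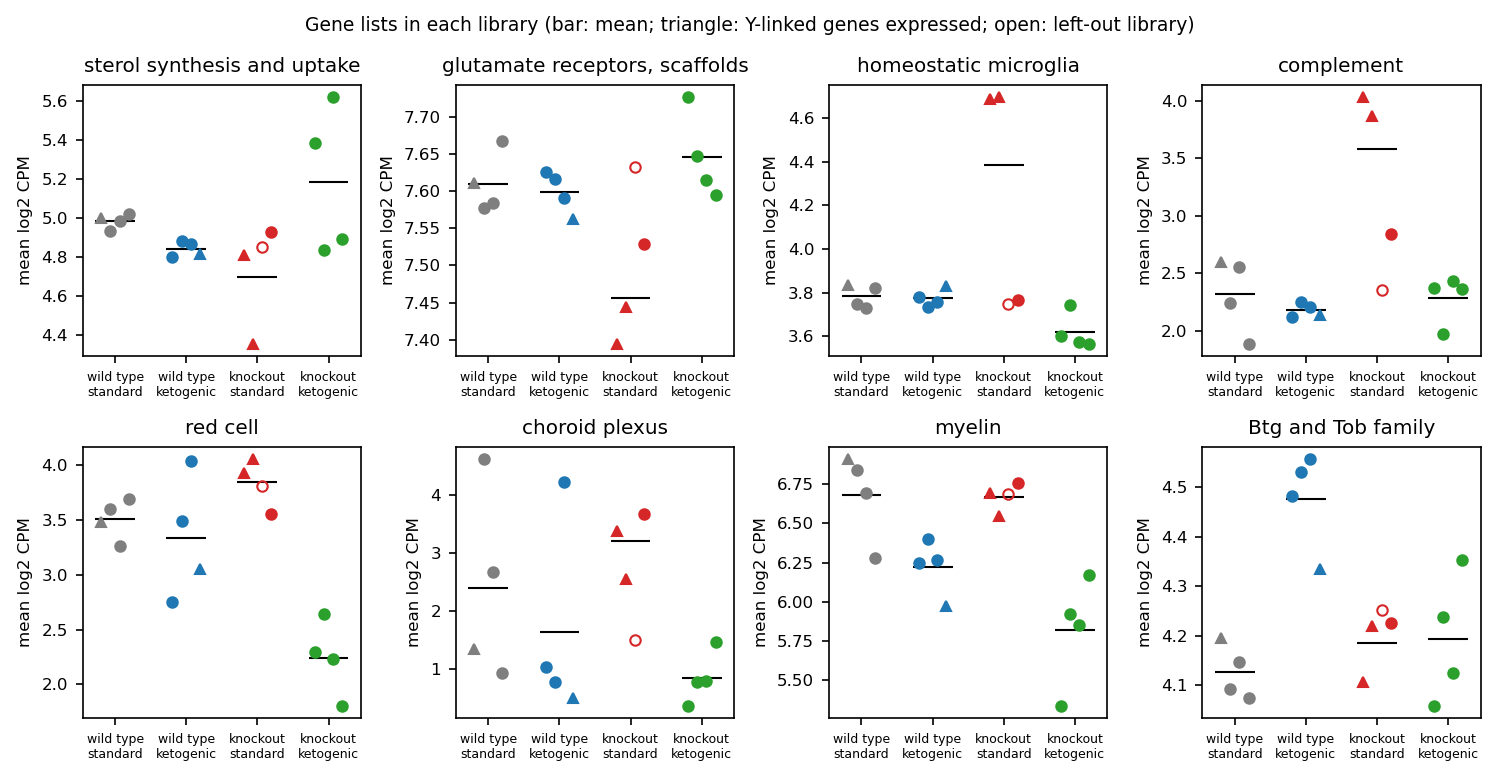
Mean log2 CPM of 8 gene lists in each library, by group, with bars at the mean of the libraries used, triangles for libraries that express Y-linked genes and an open circle for the left-out KC888LL. Microglial genes are high in KC872RL and KC873RR only, sterol genes in KC913RR and KC934R, red cell genes are low in all 4 knockout libraries on ketogenic diet, and choroid plexus genes vary within groups.

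Red cell genes were low in knockout on ketogenic diet. Hbb-bt, a beta globin chain, read 2.90, 3.90, 2.99 and 3.13 CPM in wild type on standard diet and 1.88, 3.19, 4.77 and 2.06 CPM on ketogenic diet. The knockout libraries gave 4.95, 6.92 and 3.36 CPM on standard diet and 0.667, 1.20, 0.828 and 0.882 CPM on ketogenic diet. The last 4 lay below every other library. Hbb-bt fell by 2.51 on the log2 scale in the knockout (adjusted p 0.00127, edgeR), with an interaction of -2.38 ± 0.43 (adjusted p 0.0827). Hba-a1, an alpha globin chain, read 11.7, 18.3, 8.22 and 8.995 CPM in knockout on ketogenic diet and from 21.5 to 56.9 CPM in the other 11 libraries. Alas2, the haem synthesis enzyme of erythroid cells, had an interaction of -2.25 ± 0.50 (adjusted p 0.144, edgeR).

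Of the 6 tested red cell genes, Alas2, Hba-a1, Hbb-bs and Hbb-bt were negative at an unadjusted p under 0.05, fell with diet in the knockout, as 3.6% of tested genes did, and lay below all other libraries in knockout on ketogenic diet, where 0.293% of tested genes had that order. Of the other 2, Hba-a2 was negative and 1 gene was positive, both at an unadjusted p above 0.05. The positive gene gave most of the summed level of the list, which overlapped between groups, at 352 to 421 CPM in knockout on ketogenic diet and 378 to 409 CPM in wild type on standard diet. The list's median was -1.93 and ran from -2.14 to -1.65 over the alternatives, with -1.65 without the libraries that express Y-linked genes and -1.94 with KC888LL. Globin genes are near-identical copies whose reads the counting could split, so their single values are uncertain. The labels do not say whether animals were perfused.

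Myelin genes of oligodendrocytes had lower mean levels on the ketogenic diet in both genotypes, and the difference between the genotypes was not called for any of them. All 16 myelin genes had a negative interaction, with a median of -0.37 and only Cnp at an unadjusted p under 0.05. Median log2 changes with diet were -0.84 in the knockout, where 11 genes fell (3.6% of all tested did), and -0.49 in wild type, where none passed the test. The median interaction was -0.61 without the libraries that express Y-linked genes and -0.22 without KC913RR. Of 14 genes of oligodendrocyte precursors and newly formed oligodendrocytes, 12 were negative, 3 at an unadjusted p under 0.05, and Pdgfra, the receptor that marks the precursors themselves, was positive at 0.38 ± 0.17. Enpp6, a choline phosphodiesterase of newly formed oligodendrocytes, read 14.7, 12.2, 8.69 and 7.51 CPM in wild type on standard diet and 6.87, 8.22, 6.19 and 5.80 CPM on ketogenic diet. Knockout libraries read 29.3, 11.5 and 12.8 CPM on standard diet and 3.00, 4.79, 3.70 and 3.82 CPM on ketogenic diet. Mean levels were lower on the diet in both genotypes, with overlap in wild type and none in the knockout, with an interaction of -1.56 ± 0.44 (adjusted p 0.196, edgeR) that was -0.99 without KC872RL. Of the 14, Bcas1, Bmp4 and Enpp6 lay below all other libraries in knockout on ketogenic diet, as did 0.293% of tested genes.

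Adamts4, a metalloprotease that cleaves lecticans and is expressed in oligodendrocytes, passed the test in both genotypes. It fell by 0.87 on the log2 scale in the knockout (adjusted p 0.00127) and by 0.69 in wild type (adjusted p 0.0162, edgeR). No gene was called in wild type, Adamts4 and Btg2 included, without KC842L, KC844RR, KC890RL, KC894RLL or KC897RR, nor on the 11 libraries without Y-linked expression. Levels were 27.8, 22.8, 24.7 and 21.7 CPM in wild type on standard diet, 12.7, 16.8, 15.97 and 14.6 CPM in wild type on ketogenic diet, 21.1, 22.1 and 20.1 CPM in knockout on standard diet and 10.5, 11.6, 10.98 and 12.9 CPM in knockout on ketogenic diet. The groups on the 2 diets did not overlap in either genotype. The interaction was -0.18 ± 0.15 (adjusted p 0.681), which does not show that the responses were equal. Its exons overlap a gene on the opposite strand, and its counts are uncertain because use of strand is not given in the sources used here.

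Btg2 showed the reverse case, a diet effect called in wild type. Btg2 and its relatives Btg1, Btg3, Tob1 and Tob2 recruit the CCR4-NOT deadenylase to mRNAs and slow cell division, and Btg2 is also an immediate early gene. It read 12.7, 12.05, 13.2 and 14.6 CPM in wild type on standard diet and 21.9, 23.0, 26.9 and 18.5 CPM on ketogenic diet. Corresponding knockout levels were 11.1, 11.98 and 10.9 CPM on standard diet and 12.5, 15.3, 11.9 and 15.1 CPM on ketogenic diet. The 4 wild-type libraries on ketogenic diet lay above all others. Btg2 rose by 0.78 ± 0.11 on the log2 scale in wild type (adjusted p 0.0162), and the change in the knockout was 0.27 ± 0.13 (adjusted p 0.216, edgeR). The test of the difference gave -0.51 ± 0.17 (adjusted p 0.254), so the responses were not shown to differ. All 5 family members had a negative interaction, 3 at an unadjusted p under 0.05 (Tob1, Btg2 and Tob2), with a median of -0.36 and a range over leaving out each library of -0.45 to -0.30.

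The Btg2 promoter (RefSeq, GRCm38.p6, chr1:134079106-134079405, minus strand) is printed because Btg2 and Pcsk1 were the only named genes with a window in the table to hold the cAMP response element TGACGTCA, a palindrome that reads alike on both strands. The element, in capitals, lies 166 bases before the start site. Of the 110 windows of named genes 2 hold it (1.82%), close to the 1.79% of all 32851 windows.
Btg2: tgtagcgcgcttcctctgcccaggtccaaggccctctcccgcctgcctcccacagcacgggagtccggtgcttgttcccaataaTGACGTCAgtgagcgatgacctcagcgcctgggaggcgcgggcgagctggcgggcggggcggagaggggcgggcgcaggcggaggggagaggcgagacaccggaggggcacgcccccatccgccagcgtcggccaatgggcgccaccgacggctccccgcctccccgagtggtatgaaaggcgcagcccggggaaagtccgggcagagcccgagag
The element is a match of letters, not a shown binding site.

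Some other immediate early genes, which neurons switch on within minutes of firing, were also highest in wild type on ketogenic diet. In 5 of 28 (Arc, Btg2, Ier2, Junb and Npas4) the 4 libraries of that group lay above the other 11, where 0.231% of tested genes had that order. Npas4, a neuronal transcription factor induced by calcium entry, read 8.63, 6.999, 9.24 and 10.4 CPM in wild type on standard diet and 20.9, 19.9, 23.2 and 18.1 CPM on ketogenic diet. Levels of the knockout were 3.25, 4.89 and 1.77 CPM on standard diet and 5.34, 8.83, 3.53 and 5.47 CPM on ketogenic diet. Both genotypes were higher on the diet on average, and the interaction was -0.44 ± 0.39 (adjusted p 0.711, edgeR). Over the 28 genes 15 interactions were positive and 13 negative, with a median of 0.11 that turned to -0.10 with KC888LL included and to -0.21 without KC913RR. Fos, the reference immediate early gene, read 25.3, 6.74, 1.38 and 2.82 CPM in knockout on ketogenic diet, so KC913RR alone exceeded the other groups, whose highest library stood at 20.9 CPM. Its interaction of 0.78 ± 1.01 (adjusted p 0.814, edgeR) turned to -0.58 without that library.

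Slower activity-induced effectors followed KC913RR as well. Of 20 such genes 18 had a positive interaction and 0 reached an unadjusted p under 0.05. The mean log2 CPM of the list was 5.86 in KC913RR and 4.54 to 4.92 in the other libraries used. The median interaction was 0.31 with 15 libraries and -0.04 without KC913RR.

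Genes of energy metabolism, on which a ketogenic diet bears most directly, had a list median near 0 for fatty acid and ketone use. The median was small and positive for glycolysis and for oxidative phosphorylation, and negative for mitochondrially encoded transcripts. Each of these lists had members on either side. Of 24 genes of fatty acid and ketone use, 8 were positive and 16 negative, with a median of -0.05 and a range of -0.83 to 0.72. In each direction 3 had an unadjusted p under 0.05. When each library was left out, the list median ran from -0.090 without KC934R to -0.014 without KC872RL. Oxct1 and Acat1, which turn ketone bodies into acetyl-CoA, had 0.22 ± 0.09 and 0.18 ± 0.07 (adjusted p 0.347 and 0.318, edgeR). Pdk4, the kinase that turns off pyruvate dehydrogenase when fat is burnt, read 18.9, 15.4 and 16.6 CPM in knockout on standard diet and 6.07, 9.58, 13.3 and 12.6 CPM on ketogenic diet, against 9.82 to 15.2 CPM in wild type. Its interaction was -0.69 ± 0.29 (adjusted p 0.373, edgeR). Of 24 glycolytic genes 17 were positive and 7 negative, 6 and 2 of them at an unadjusted p under 0.05 (1 and 1 without the libraries that express Y-linked genes). Their median was 0.09, and it ran from 0.037 without KC873RR to 0.15 without KC893RL. Slc2a1, the glucose transporter of the blood-brain barrier, was negative at -0.45 ± 0.13 and Slc2a3, that of neurons, was positive at 0.38 ± 0.10 (adjusted p 0.204 and 0.176, edgeR). Mitochondrially encoded transcripts were negative in 10 of 12, 5 at an unadjusted p under 0.05. Their median was -0.20 and ran from -0.31 to -0.15 over the alternatives, and mt-Nd4 had -0.35 ± 0.09 (adjusted p 0.147, edgeR). A separate list of 21 oxidative phosphorylation genes had 17 positive and 4 negative, 2 and 0 of them at an unadjusted p under 0.05. The median of that list was 0.0997 and ran from 0.061 to 0.114 over the alternatives.

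Choroid plexus genes had large but unstable interactions. Of 12, 11 were negative and 0 reached an unadjusted p under 0.05, with a median of -1.75 that ran from -3.15 without KC894RLL to 0.22 without KC844RR. Ttr, the thyroxine carrier that this epithelium secretes, read 970 CPM in KC894RLL and 957 CPM in KC844RR, both wild type, and 3.94 to 508 CPM in the other libraries used. Folr1, Kcnj13 and Otx2 were at 0 in at least 1 library. Thalamic markers were negative in 8 of 10, with a median of -0.55 (-0.29 without KC872RL) and 2 at an unadjusted p under 0.05. Their part in the other results was not tested.

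**Figure D4:**
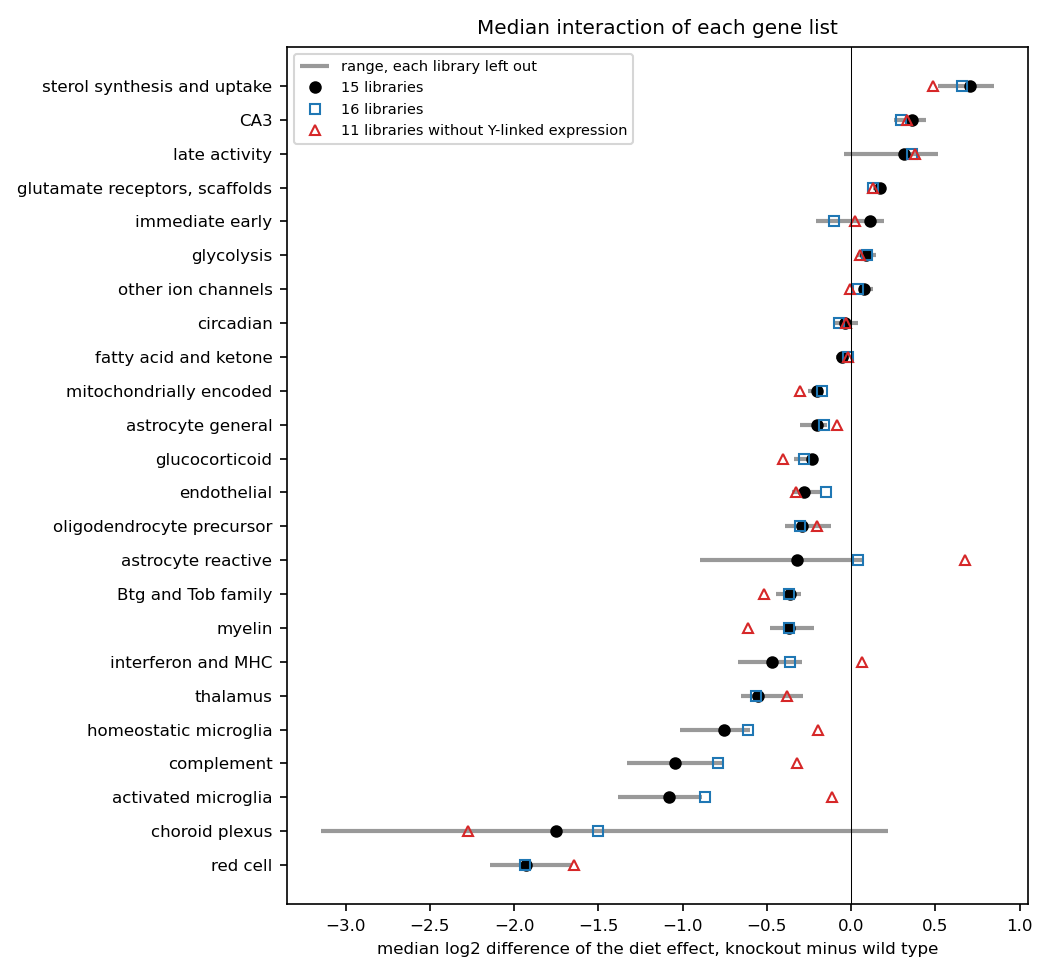
Median interaction of described gene lists, as the log2 diet effect in the knockout minus that in wild type. Values are for 15 libraries (black), for 16 with KC888LL (blue squares) and for the 11 without Y-linked expression (red triangles). Grey bars give the range when each library is left out. Red cell, sterol and Btg and Tob lists keep their sign in all of these, as do others, among them glutamate, CA3 and myelin. Microglial and complement lists keep theirs too but move towards 0 without the Y-linked libraries. The interferon and MHC list turns positive there, to 0.065. The choroid plexus, reactive astrocyte, immediate early and slower activity-induced ranges cross 0, among others.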

How the data were processed

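RNA-seq counts were deposited by the authors as a table of whole-number counts per gene, with 49315 Ensembl genes and 1 column per animal. The submitters' processing notes name DESeq2 and mm10, and the aligner, counter, annotation and use of strand are not given in the sources used here. Columns were matched to groups by their genotype and diet suffix. Of the identifiers 49056 were in GENCODE M21, used for exon overlaps on GRCm38.

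Genes were filtered by filterByExpr (17725 kept) and tested with edgeR 4.0.16 in R 4.3.3, using TMM factors, robust quasi-likelihood dispersions, 1 coefficient per group, 11 residual degrees of freedom and a two-sided F test, adjusted by Benjamini-Hochberg. Calls used an adjusted p under 0.05. Standard errors came from the F statistic. CPM used TMM factors over all 16 libraries, and log2 CPM a prior count of 2. Each list is summarised by counts and its median. The fit was tested on simulated data, and the outcome is not reported here. Alternatives used DESeq2 1.42.0, limma 3.58.1 and sva 3.50.0.

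Named genes were the 10 of smallest p in each direction with a mean of at least 1 CPM, 11 genes fixed by name, and up to 4 of smallest p in each of the described lists. Hmgcs1, Npas4 and other genes singled out for a promoter match or for groups that do not overlap were chosen after their values were seen. The members and the 38 lists were chosen with earlier results of these data known. A library was taken to express Y-linked genes above 10 CPM of total. Promoter windows, of 250 bases before to 50 after a start site, came from RefSeq. Some genes of the lists are not reported here.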

Additional observations from a re-analysis of the deposited data

Results flagged for a closer look

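Of 156 groups of 4 libraries examined, over 28 genes and 24 lists, 5 held a library far from the other 3, and chance gives about 1 in 20 such groups. Cbs stood at 34.6 CPM in KC846L, wild type on ketogenic diet, where the nearest other library was at 30.2 CPM. In mean log2 CPM, the choroid plexus list stood at 4.21 in KC844RR, also wild type on ketogenic diet, with the nearest at 1.02. The CA3 list stood at 5.05 in KC900RLL, wild type on standard diet, with the nearest at 5.16. In knockout on ketogenic diet the complement list stood at 1.98 in KC916RRL, with the nearest at 2.36, and the list of oligodendrocyte precursor genes stood at 4.04 in KC913RR, with the nearest at 4.35. The group of 3 was not examined.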

How the results depend on the processing

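Of 3387 values of the named genes under alternatives, 3218 were unchanged, 147 passed the threshold, 18 changed sign and 4 moved. Unchanged means the same direction and side of the threshold. Kcna1, which has no test, was instead sorted by whether its value moved by more than its standard deviation within groups. Of 1064 list medians 67 moved by more than the pooled standard deviation within groups of the list's mean log2 CPM. Genes called for the interaction numbered 0 except 205 with DESeq2, 7 with DESeq2 on 16 libraries, 71 without a filter, 102 with 1 surrogate variable, and 0 to 189 when each library was left out. Those at an unadjusted p under 0.05 numbered 1306 on 16 libraries (DESeq2 1315), 810 on the 11 libraries without Y-linked expression, and 1403 to 2440 with each library left out. Upper-quartile scaling split them 745 positive to 1229 negative, against 1009 to 1026. Genes called in the knockout diet comparison numbered 202 on 16 libraries, 1648 with DESeq2 (677 on 16), 171 with Y-linked expression as a factor, 0 on the 11 libraries, 1741 with the surrogate variable, 83 from its 2 groups alone, and 139 to 1338 with each library left out. In wild type they numbered 12 with DESeq2 (12 on 16), 0 on the 11 libraries, 11 from its 2 groups alone, and 0 to 3 with each library left out. After seeing the data, 2 alternatives were added. All 16 libraries with Y-linked expression as a factor gave 778 at an unadjusted p under 0.05, 27 called in the knockout and 1 in wild type. Those of the 16 without Y-linked expression gave 541, 3 and 0.

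Sign changes were as follows. On the 11 libraries Gfap became 0.68 and Serpina3n 0.31. With 16 libraries and the Y-linked factor they became 0.44 and 0.17. On those of the 16 without Y-linked expression Gfap became 1.03, Serpina3n 0.75, Fos -0.10, C1qa 0.091, Egr4 -0.32, Lyz2 0.056 and Pdgfra -0.073. Limma-voom gave Fos -0.045, and the surrogate variable gave Fos -0.037 and S1pr3 -0.0061. Leaving out each library gave -0.58 (without KC913RR) to 1.15 for Fos, -0.44 (without KC913RR) to 1.39 for S1pr3, -1.26 to 0.035 (without KC872RL) for Gfap and -5.51 to 0.30 (without KC844RR) for Ttr. The cause of these shifts was not tested.

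No paired analysis was possible because the deposited columns carry no replicate numbers. The 3 knockout libraries on standard diet, of which 2 express Y-linked genes, limit every interaction, and with the Y-linked libraries removed a single one is left, assumed to vary like the other groups. Genes at a few CPM rest on few counts.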
